A study of Mus musculus with 18 samples.

Results

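The IL-12 family is a group of secreted cytokines, each built from 2 subunits, and it is described here at the level of the messenger RNA of its 5 subunit genes in mouse macrophages given heme before lipopolysaccharide (LPS). The members were taken by gene symbol as Il12a, Il12b, Il23a, Il27 and Ebi3, which are 5 of the 22485 genes named on the array. Il12b was measured by 10 features (array spots) and the other members by 1 each, 14 features in all, and the values of a gene's features were averaged.

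The family works by pairing. Il12b encodes p40, which joins p35 (Il12a) to make IL-12 or p19 (Il23a) to make IL-23, and Ebi3 joins p28 (Il27) to make IL-27. IL-12 drives interferon gamma production by T and NK cells, IL-23 sustains IL-17-producing T cells, and IL-27 both promotes early T cell responses and restrains inflammation. In macrophages LPS acts through the receptor TLR4 and NF-kB and interferon regulatory factors to switch these genes on, and NRF2, encoded by Nfe2l2, is the transcription factor that drives antioxidant and heme-handling genes.

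The cells were macrophages grown from bone marrow of mice aged 8 to 10 weeks in 10 ng/ml of the growth factor M-CSF for 7 days. They were either Nrf2+/+ (wild type) or Nrf2-/- (knockout). Wild-type cells formed 3 groups of 3 arrays each, with 4 h of albumin, 4 h of LPS at 10 ng/ml, or 4 h of heme-albumin at 200 µM followed by 4 h of LPS. Knockout cells formed 2 groups, LPS with 4 arrays and heme followed by LPS with 5, and there was no knockout group without LPS. The treatment protocol speaks of albumin alone before LPS but the labels of the LPS arrays do not, so the LPS groups may or may not have had albumin. Each array set 1 sample, in Cy5, against RNA of untreated macrophages, in Cy3, from 500 ng of total RNA, and every value below is the log2 of that ratio. The replicates are letters, described in the design text as independent biological replicates. Letters d and e occur only in the knockout, and e only in its heme group.

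Between 17.9% and 48.8% of an array's features had a ratio of exactly 0. The shares were largest, 44.3% or more, on the 4 arrays with LPS that carry the letter a, and at most 41.3% on the other LPS-treated arrays. Results on the members are therefore also given without those 4 arrays where a call changed, and for some other differences. Nfe2l2 was listed at 0 on all 9 knockout arrays (4 and 5), and averaged -0.29 ± 0.40 (SD, n = 3) in wild type with LPS and 0.64 ± 0.46 (SD, n = 3) in wild type with heme and LPS. It was also at 0 on 2 of the 3 wild-type albumin arrays (mean -0.07 ± 0.12, SD), so a listed 0 does not by itself mark the knockout. None of the 6 macrophage markers was at 0 on more than 9 arrays, and the same held for the 6 neutrophil and the 6 T and NK cell markers. Of 8 dendritic cell markers 2 were (Xcr1 and Clec9a), and of 4 B cell markers 1 was (Ms4a1, at 0 on every array), so zeros do not set macrophages apart from these other cell types. In RNA from whole cultures, fewer cells expressing a gene and less RNA per cell cannot be told apart.

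Promoter sequences were matched by symbol for 3 of the 5 members (Il12a, with 2 start sites, Il12b and Ebi3) in RefSeq's annotation of build GRCm38.p6. The promoters of Il12b and Ebi3 are shown because these genes encode the shared p40 chain and the IL-27 partner chain and because their messages rose with LPS. Each sequence is the 250 bases before the start site, 5′ to 3′ on the gene's strand, which is the plus strand for both. Il12b lies at chr11:44399813-44400062 and its capitals mark the PU.1 letters GAGGAA, found from -143 to -138 on the gene's strand and, as TTCCTC, from -219 to -214 on the opposite strand. Ebi3 lies at chr17:55952373-55952622 and its capitals mark the PU.1 letters from -176 to -171 and a pair of overlapping matches to the NF-kB letters (GGG and CC with 5 bases of any kind between them), from -44 to -35 and from -43 to -34.
Il12b promoter: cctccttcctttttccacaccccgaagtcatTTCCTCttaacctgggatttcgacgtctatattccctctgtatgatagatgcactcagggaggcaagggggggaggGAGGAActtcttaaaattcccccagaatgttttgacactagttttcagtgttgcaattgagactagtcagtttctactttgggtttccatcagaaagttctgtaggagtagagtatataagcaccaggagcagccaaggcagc
Ebi3 promoter: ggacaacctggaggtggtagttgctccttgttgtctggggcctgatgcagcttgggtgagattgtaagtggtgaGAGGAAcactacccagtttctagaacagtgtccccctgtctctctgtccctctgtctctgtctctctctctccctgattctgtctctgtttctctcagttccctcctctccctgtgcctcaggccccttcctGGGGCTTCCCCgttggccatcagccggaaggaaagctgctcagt
Searched on both strands in windows of 250 bases before to 50 after the start, GAGGAA was present in 28.3% and the NF-kB letters in 50.8% of 32851 promoters, so both matches are common. The longer windows held additional NF-kB matches, for Ebi3 from 15 to 24 and, on the opposite strand, from 36 to 45, and for the second start of Il12a from -113 to -104, overlapped on the opposite strand from -112 to -103, and from 18 to 27. The letters for an interferon response element (GAAA on both sides of 2 bases of any kind, in 3.4% of promoters), AP-1 (TGANTCA, 7.8%), C/EBP (TTNCNNAA, 40.7%) and the antioxidant response element through which NRF2 acts (TGACNNNGC, 12.4%) were not found in these members' windows. The NF-kB letters were not found in the Il12b window. Only these fixed letters were searched, so a window without a match may still hold a site that departs from them.

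LPS alone raised the shared p40 chain and both chains of IL-27 in wild-type cells, while p35 and p19 did not pass the test. Il12b stood at -0.02, 0.02 and 0.15 on the albumin arrays lettered a to c, and at 8.65, 8.44 and 8.17 on the LPS arrays. The LPS arrays lay far above every albumin array. The difference was 8.37 ± 0.85 (SE) on the log2 scale (adjusted p = 5.4e-06). Of the 30 Il12b feature values on albumin arrays 26 were listed at exactly 0, so the size of this rise rests on a baseline close to the reference and is uncertain. Il27 stood at 0.02, -0.09 and -0.02 with albumin and at 3.14, 3.04 and 2.99 with LPS. These groups were also wide apart, with a difference of 3.09 ± 0.36 (SE, 8.49-fold, adjusted p = 1.91e-05). Ebi3 stood at 0.43, 0.54 and 0.42 with albumin and at 3.06, 2.01 and 1.51 with LPS. The groups did not overlap, although the LPS arrays spread widely, and the difference was 1.73 ± 0.51 (SE, 3.31-fold, adjusted p = 0.0197). That call was lost without the LPS array lettered a (1.30, adjusted p = 0.0974), without the albumin arrays lettered a or c (adjusted p = 0.0523 and 0.0533), and with all 4 of those high-zero arrays dropped (adjusted p = 0.1). In total 3 of 5 members were called higher, where 12.3% of all genes were called higher in this comparison, and the median difference of the members was 1.73 against 0 for all genes.

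The subunits that make IL-12 and IL-23 distinct gave little signal. Il12a, the p35 chain, was listed at exactly 0 on 13 of 18 arrays, including all 3 albumin arrays. The wild-type LPS arrays lettered b and c read -0.75 and 0.70, opposite in sign, and the wild-type heme array lettered b read -0.06. In the knockout the arrays lettered d read -0.84 with LPS and -0.07 with heme and LPS, and no other array departed from 0. The Il12a groups overlapped throughout, and the difference between LPS and albumin was -0.02 ± 0.28 (SE, adjusted p = 1). Il23a, the p19 chain, was at exactly 0 on 6 of 18 arrays. It read 0, -0.37 and 0 with albumin, and 0, 0 and 2.36 with LPS, so a single LPS array carried the group mean. The difference was 0.91 ± 0.70 (SE, adjusted p = 0.383), 0.12 without that array and 2.73 with values of exactly 0 taken as missing (adjusted p = 0.0794).

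**Figure D1:**
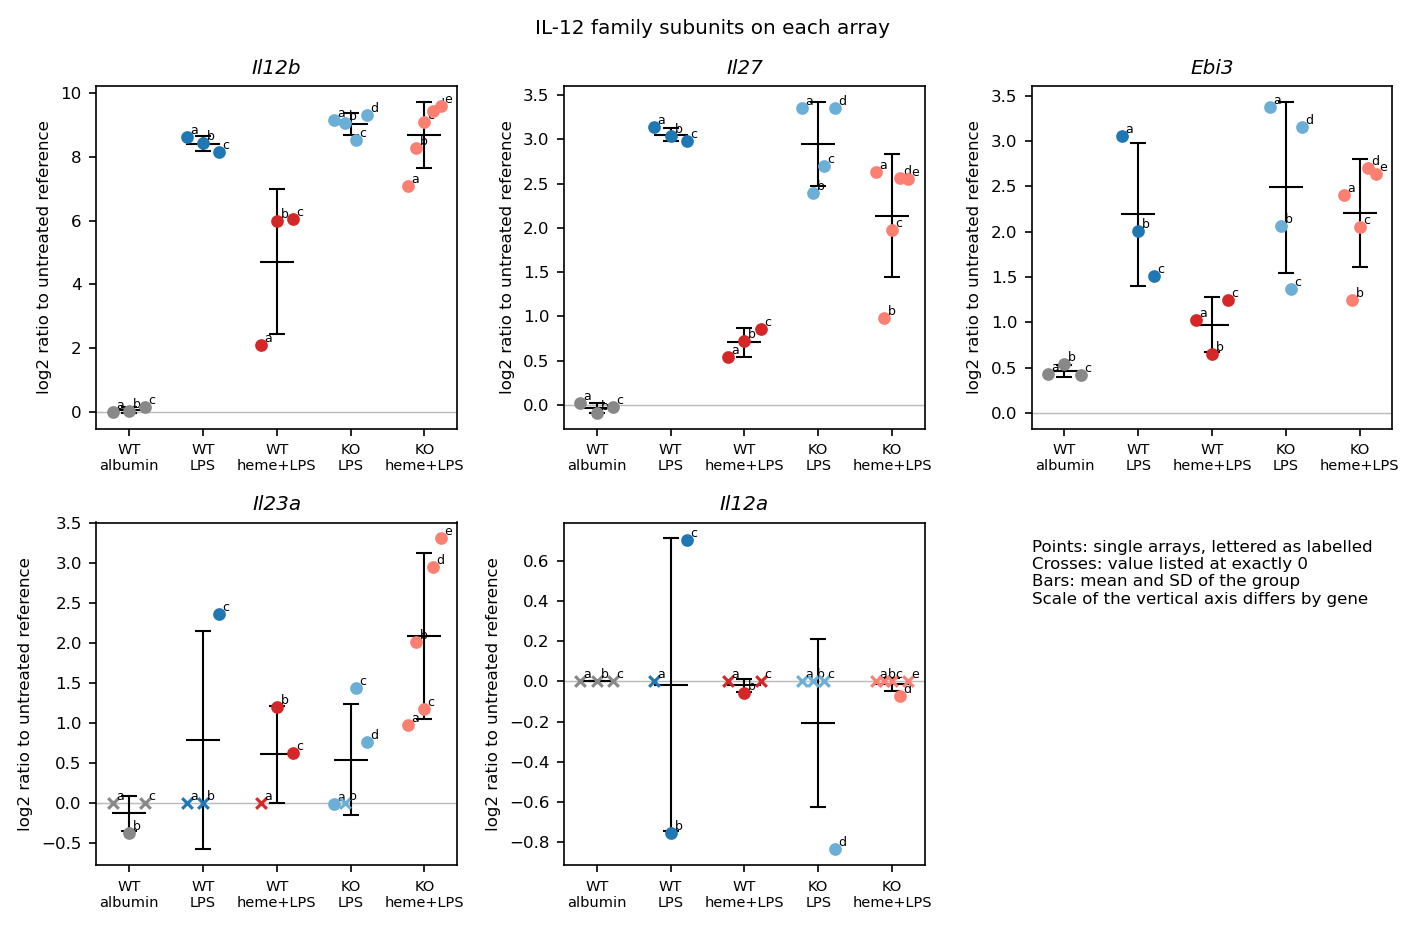
Log2 ratio of each IL-12 family subunit to the untreated reference (vertical axis, scale differing by gene) on each of 18 arrays in 5 groups (horizontal axis), with single arrays as lettered points, crosses for values listed at exactly 0, and bars for group mean and SD. Il12b and Il27 separate wild-type heme arrays (at most 6.07 and 0.86) from wild-type LPS arrays (at least 8.17 and 2.99), while Il12a lies at 0 on 13 arrays.

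Heme given before LPS lowered p40 and p28 in wild-type cells. Il12b read 2.09, 5.995 and 6.07 on the arrays lettered a to c, against 8.65, 8.44 and 8.17 with LPS alone, and the groups did not overlap. Its difference was -3.71 ± 0.85 (SE), 13-fold lower (adjusted p = 0.00761). The array lettered a was far below the other 2 heme arrays, and without it the fall was -2.39 (adjusted p between 0.00531 and 0.03 when single arrays were left out). Il27 read 0.54, 0.72 and 0.86 after heme against 3.14, 3.04 and 2.99, with tight replicates on both sides. The difference was -2.35 ± 0.36 (SE), 5.09-fold lower (adjusted p = 0.000408), and it stayed between -2.42 and -2.26 when each array was left out in turn. By letter the fall in Il27 was -2.60, -2.32 and -2.12, and that in Il12b was -6.56, -2.45 and -2.11.

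Ebi3, the partner of p28, read 1.03, 0.65 and 1.25 after heme and 3.06, 2.01 and 1.51 with LPS. Every heme array lay below every LPS array, but the difference of -1.22 ± 0.51 (SE) did not pass adjustment over all genes (adjusted p = 0.156). Il23a read 0, 1.201 and 0.63 after heme, within the range of the LPS arrays, and differed by -0.18 ± 0.70 (SE, adjusted p = 1), or by -1.44 with zeros taken as missing (adjusted p = 0.366). Of the members, 2 of 5 were called lower, where 6.35% of all genes were called lower in this comparison, and the members' median difference was -1.22 against 0 over all genes. The fit restricted to the 6 arrays of these groups called Il27 but not Il12b (adjusted p = 0.188).

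Heme did not return p40 to its level under albumin. Il12b after heme and LPS was 4.67 ± 0.85 (SE) above albumin (adjusted p = 0.000882), and 5.98 above it without the heme array lettered a. It was 1 of 5 members called higher, against 12.9% of all genes, but the fit restricted to these arrays gave it an adjusted p of 0.0509. Il27 exceeded albumin by 0.74 ± 0.36 (SE) on nonoverlapping arrays without a call (adjusted p = 0.154), which quantile normalization and the fit restricted to these groups turned into one (adjusted p = 0.0375 and 0.00705). Ebi3 and Il23a differed from albumin by 0.51 ± 0.51 and 0.73 ± 0.70 (SE, adjusted p = 0.522 and 0.496). The comparisons in wild type share arrays, LPS arrays for the first 2 and heme arrays for the last 2, and all arrays share the reference, so they are given side by side only.

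In knockout cells none of the 5 members passed the test for heme before LPS, where 6.77% of all genes were called in either direction by limma; 2 members had an unadjusted p under 0.05. Il12b read 9.18, 9.08, 8.54 and 9.33 with LPS on the arrays lettered a to d, and 7.09, 8.30, 9.09, 9.46 and 9.60 with heme and LPS on those lettered a to e. The groups overlapped, the a array again being the lowest with heme, and the difference was -0.32 ± 0.70 (SE, 95% interval -1.82 to 1.17, adjusted p = 0.937). Without the arrays lettered a it was 0.13. Il27 read 3.35, 2.40, 2.70 and 3.35 with LPS and 2.63, 0.98, 1.97, 2.56 and 2.55 with heme. It was lower by letter in all 4 lettered pairs (-0.72, -1.42, -0.72 and -0.79), with a difference of -0.81 ± 0.30 (SE, adjusted p = 0.14).

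Ebi3 read 3.37, 2.07, 1.37 and 3.16 with LPS and 2.40, 1.25, 2.05, 2.70 and 2.63 with heme in the knockout, with partial overlap and a difference of -0.28 ± 0.42 (SE, adjusted p = 0.86). Il23a went the other way. It read -0.01, 0, 1.44 and 0.76 with LPS and 0.97, 2.02, 1.18, 2.95 and 3.31 with heme, and the arrays overlapped. The difference was 1.54 ± 0.57 (SE), which did not pass adjustment (adjusted p = 0.151). Within letters a to d it was 0.98, 2.02, -0.26 and 2.19. The heme arrays of the knockout are the only group in which Il23a was above 0 on every array.

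**Figure D2:**
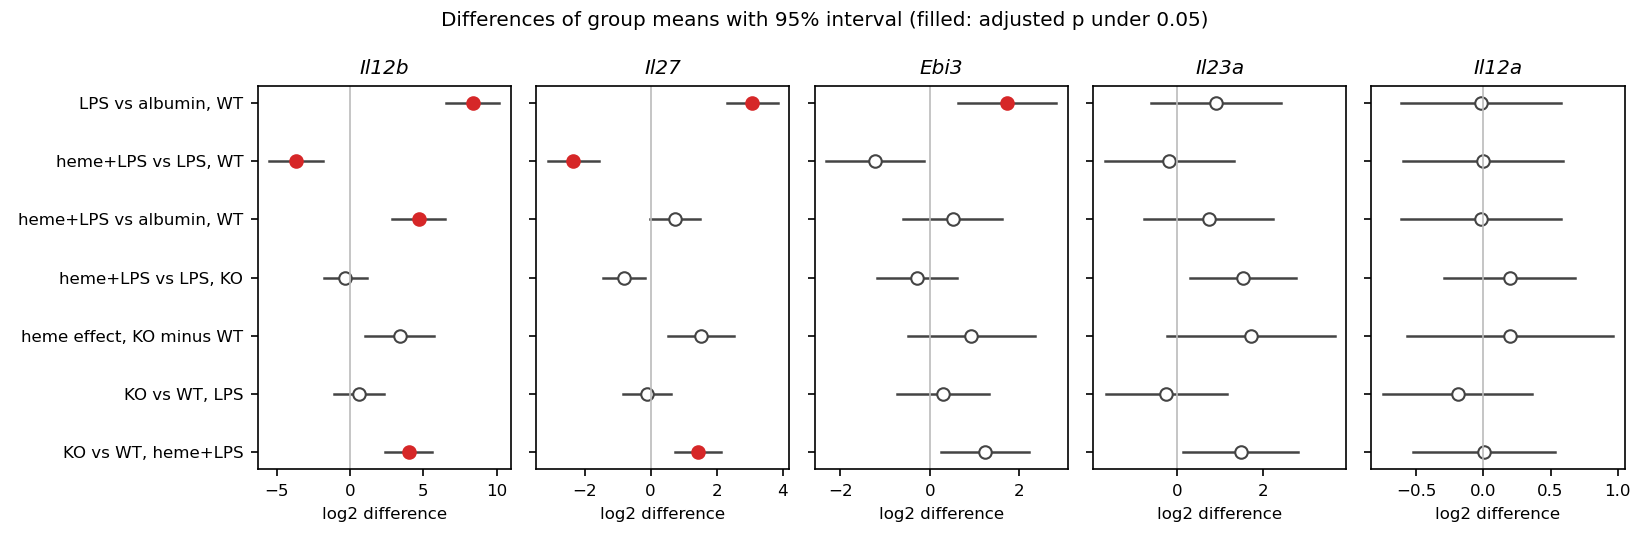
Log2 difference of group means (horizontal axis) with its 95% interval for each subunit in 7 comparisons (vertical axis), where WT is wild type, KO is the knockout and filled points passed an adjusted p under 0.05. Il12b, Il27 and Ebi3 pass for LPS against albumin. Il12b and Il27 pass in the wild-type heme comparison (-3.71 and -2.35) and in the knockout against wild type under heme (3.99 and 1.43). No member passes in the knockout against wild type under LPS alone.

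Under LPS alone no member passed between genotypes. All 5 adjusted p were 1 and no member had an unadjusted p under 0.05, while 0.00445% of all genes (1 gene) were called by limma. The interval for Il12b, whose difference was 0.61 ± 0.79 (SE), ran from -1.09 to 2.31, and that for Il27, -0.10 ± 0.34 (SE), from -0.83 to 0.62. Il23a differed by -0.24 ± 0.65 (SE), or by -1.63 with zeros taken as missing (adjusted p = 1 for both). Differences between genotypes within these intervals are not excluded by these arrays. None of the listed pathway genes passed in this comparison either.

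Under heme and LPS the knockout held p40 and p28 higher than wild type. The Il12b arrays given above ran from 7.09 to 9.60 in the knockout and from 2.09 to 6.07 in wild type without overlap, a difference of 3.99 ± 0.76 (SE), 15.9-fold (adjusted p = 0.00569). Il27 ran from 0.98 to 2.63 against 0.54 to 0.86, a difference of 1.43 ± 0.32 (SE), 2.7-fold (adjusted p = 0.0168). These 2 of 5 members were called higher, against 2.13% of all genes, with a median of 1.43 over the members and 0 over all genes. Ebi3 was also higher without overlap (1.23 ± 0.46, SE, adjusted p = 0.166) and was called under quantile normalization (1.18, adjusted p = 0.0286), while Il23a was 1.48 ± 0.62 (SE) higher on overlapping arrays (adjusted p = 0.247).

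Arrays with the same letter in these groups deviated together, with correlations of 0.23 to 0.53 for 3 pairs. With the letter as a replicate block over the LPS-treated arrays neither call held: Il12b differed by 3.56 (adjusted p = 0.0685) and Il27 by 1.18 (adjusted p = 0.0855). With the block over all arrays both held (adjusted p = 0.0295 and 0.0424). The fit restricted to the arrays of these groups lost both (adjusted p = 0.181 for Il12b and 0.195 for Il27). The call of Il27 was also lost without the wild-type heme array lettered a (1.35, adjusted p = 0.0625) or b (1.44, adjusted p = 0.0575) and without the 4 arrays lettered a (1.22, adjusted p = 0.124). Within letters a, b and c the knockout exceeded wild type by 5.00, 2.30 and 3.03 for Il12b, and by 2.09, 0.26 and 1.11 for Il27. For Il23a, which was not called, it did so by 0.97, 0.82 and 0.55.

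Whether the heme effect itself differed between genotypes was tested as an interaction, subtracting the wild-type heme difference from the knockout's. No member passed, against 0.947% of all genes called by limma, and 2 members had an unadjusted p under 0.05. The value was 3.38 ± 1.1 (SE, adjusted p = 0.26) for Il12b and 1.54 ± 0.47 (SE, adjusted p = 0.202) for Il27. Without the arrays lettered a Il12b passed (2.41, adjusted p = 0.0437), and Il27 passed without the knockout heme array lettered b (1.83, adjusted p = 0.00907) or under quantile normalization (1.47, adjusted p = 0.0482). Il23a gave 1.72 ± 0.90 (2.8 with zeros taken as missing, adjusted p = 0.365), Ebi3 0.93 ± 0.66 and Il12a 0.20 ± 0.36 (SE, adjusted p = 0.722, 0.886 and 0.982). A heme effect on p40 and p28 that passes in wild type and not in the knockout was therefore not shown by this test to depend on genotype.

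The 10 features of Il12b gave 1 pattern. All 10 passed for LPS against albumin, with differences of 7.76 to 8.61, for heme in wild type (-4.81 to -3.11), for heme and LPS against albumin (3.69 to 5.09) and for the knockout against wild type under heme (3.604 to 5.06). None of the 10 passed for heme in the knockout, for the interaction or for genotype under LPS. Features of an array share its RNA, so they speak to the measurement and not to biological replication. On wild-type heme arrays they spread by an SD of 0.20 to 0.79 within an array, while the arrays themselves differed by an SD of 2.28, and the low array lettered a held all 10 between 0.43 and 2.72.

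**Figure D3:**
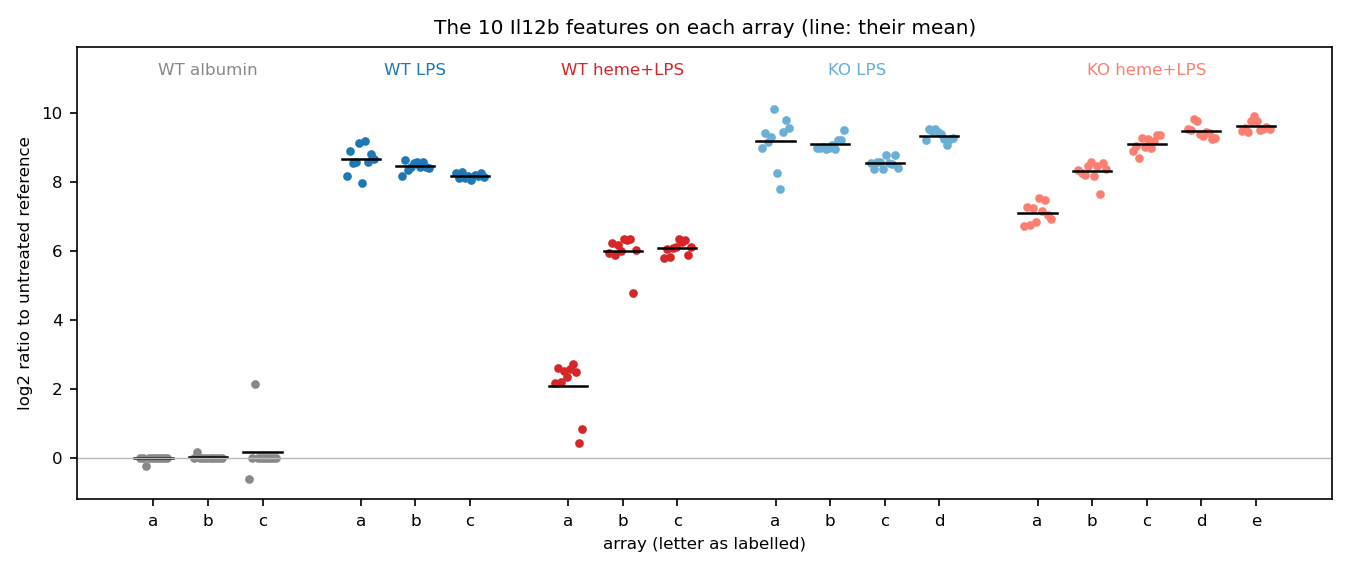
Log2 ratio to the untreated reference (vertical axis) of the 10 Il12b features on each array (horizontal axis, grouped by condition and lettered), with a line at their mean. On the wild-type heme array lettered a all 10 features lie between 0.43 and 2.72, below the other 2 heme arrays of that genotype, whose features start at 4.77.

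Ordered by group mean, Il12b was lowest with albumin (0.05 ± 0.09, SD, n = 3), then wild-type heme and LPS (4.72 ± 2.28, n = 3), wild-type LPS (8.42 ± 0.24, n = 3), knockout heme and LPS (8.71 ± 1.04, n = 5) and knockout LPS (9.03 ± 0.35, n = 4). The last 3 overlapped one another. Il27 had the order albumin (-0.03 ± 0.05), wild-type heme and LPS (0.71 ± 0.16), knockout heme and LPS (2.14 ± 0.70), knockout LPS (2.95 ± 0.48) and wild-type LPS (3.05 ± 0.08), in which the knockout groups overlapped, as did the 2 LPS groups. Knockout heme arrays all lay below the wild-type LPS arrays for Il27 but not for Il12b.

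Receptors of the family and their signalling genes were examined from fixed lists. Of 5 receptor genes LPS lowered 1 and raised none, where 3665 of 22485 genes were lower and 12.3% were higher. The gene lowered was Il6st, the gp130 chain shared by IL-27 and IL-6 receptors (-0.96 ± 0.19, SE, adjusted p = 0.00132). Il23r gave 1.54 ± 0.58 (SE, adjusted p = 0.0621). Il23r passed without the LPS array lettered a (adjusted p = 0.00749), without the 4 arrays lettered a (2.21, adjusted p = 0.00247) and under quantile normalization (adjusted p = 0.0163). Its heme difference, -1.54 in wild type and in the knockout (adjusted p = 0.104 and 0.0723), passed without the 4 arrays lettered a (adjusted p = 0.00907 and 0.00692) and under quantile normalization (adjusted p = 0.0362 and 0.0385). In the albumin group and in the heme groups of both genotypes, Il23r held no value other than 0. Its differences therefore set the LPS arrays against zeros of unknown meaning, and their size is uncertain. Heme before LPS in wild type raised 1 of the 5, Il6st, by 0.63 ± 0.19 (SE, adjusted p = 0.0337), where 1876 of 22485 genes were higher. That call was lost without the arrays lettered a (adjusted p = 0.234) and without any 1 of 4 single arrays. Of 5 kinases and STAT factors 3 rose with LPS, where 12.3% of all genes were higher, among them Jak2 (3.78 ± 0.38, SE, adjusted p = 4.6e-06) and Tyk2 (2.06 ± 0.29, SE, adjusted p = 8.92e-05), which couple the IL-12 receptor to STAT4, while Jak1 gave 0.42 ± 0.29 (SE, adjusted p = 0.313). Heme in wild type lowered 3 of the 5, where 6.35% of all genes were lower, including Stat3 (-1.87 ± 0.37, SE, adjusted p = 0.00291) and Jak2 (-1.79 ± 0.38, SE, adjusted p = 0.00421). In the knockout it lowered 1, Stat3 (-1.201 ± 0.30, SE, adjusted p = 0.028), where 2.67% of all genes were lower. The wild-type fall of Stat4, the other one called, was lost without the arrays lettered a (adjusted p = 0.052) and without any 1 of 4 single arrays. That of Stat3 in the knockout was lost without the arrays lettered a (adjusted p = 0.0774) and without any 1 of 3 single arrays (highest adjusted p = 0.105). None of the 5 measured genes of responding lymphocytes (Ifng, Il17a, Il17f, Il22 and Tbx21) passed in any comparison.

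The LPS receptor list holds the receptor and the adaptors that carry its signal. LPS raised 4 of its 9 measured genes, where 12.3% of all genes were higher, among them Cd14, the co-receptor, by 2.50 ± 0.31 (SE, adjusted p = 3.09e-05) and the adaptor Myd88 by 2.19 ± 0.24 (SE, adjusted p = 1.22e-05), while Tlr4 gave -0.50 ± 0.21 (SE, adjusted p = 0.0915). Ly96, another of the 4, lost its call without any 1 of 5 single arrays (highest adjusted p = 0.147). Heme in wild type lowered 2 of the 9 genes and raised 2. It lowered the adaptors Myd88 (-1.39 ± 0.24, SE, adjusted p = 0.00116) and Tirap (-0.68 ± 0.18, SE, adjusted p = 0.0169). It raised Ticam1 (1.07 ± 0.24, SE, adjusted p = 0.00672), the TRIF adaptor, and Traf6 (0.81 ± 0.18, SE, adjusted p = 0.00745). Ticam2 was lower without a call (-1.204 ± 0.562, SE, adjusted p = 0.215). Among all genes 6.35% were lower and 1876 of 22485 were higher in this comparison. Without the arrays lettered a neither rise passed (adjusted p = 0.0617 and 0.0647), and the fall of Tirap did not pass under quantile normalization (adjusted p = 0.0595). That fall was also lost without any 1 of 3 single arrays (highest adjusted p = 0.0792). In the knockout heme raised Ticam1 (0.84 ± 0.20, SE, adjusted p = 0.0182) and lowered Tlr4 (-0.69 ± 0.17, SE, adjusted p = 0.0251), calls lost without any 1 of 2 and of 6 single arrays. Over all genes 922 of 22485 were higher there and 2.67% were lower. Under heme and LPS the knockout was lower than wild type in Tlr4 (-1.13 ± 0.19, SE, adjusted p = 0.00212) and higher in Tirap (0.81 ± 0.16, SE, adjusted p = 0.00716) and Myd88 (0.91 ± 0.22, SE, adjusted p = 0.0241), the last without a call when any 1 of 5 single arrays was left out. Over all genes 2.13% were higher in that comparison and 710 of 22485 were lower.

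Transcription factors that activate IL-12 family genes were mostly raised by LPS and lowered by heme in wild type. LPS raised 8 of 11, where 12.3% of all genes were higher, led by Nfkbiz, an NF-kB cofactor (6.05 ± 0.43, SE, adjusted p = 2.3e-07), and Rel, the c-Rel subunit (4.42 ± 0.88, SE, adjusted p = 0.00152), lowered Irf3 (-0.89 ± 0.12, SE, adjusted p = 5.2e-05), and Irf8 gave 1.55 ± 0.61 (SE, adjusted p = 0.0719). The rise of Cebpb was lost without any 1 of 3 single arrays (highest adjusted p = 0.0945). Heme lowered 7 of 11 and raised none, against 6.35% of all genes lower, with a list median of -1.52 and 0 for all genes. The largest falls were in the AP-1 factor Fos (-3.66 ± 0.96, SE, adjusted p = 0.0172), whose call was lost without any 1 of 3 single arrays, and in Irf8 (-3.45 ± 0.61, SE, adjusted p = 0.00119), a factor required for IL-12 production. The fall of Irf5 was lost without any 1 of 5 single arrays (highest adjusted p = 0.124), and that of Nfkbiz without the 4 arrays lettered a (adjusted p = 0.059). Spi1, encoding PU.1, gave -0.72 ± 0.24 (SE, adjusted p = 0.0568). Counts of 7 lower were also obtained without the arrays lettered a, under quantile normalization and with the replicate block, and 3 in the fit restricted to these groups.

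In knockout cells heme lowered 2 of the 11 activators, where 2.67% of all genes were lower, and none passed the interaction test. They were Irf8 (-2.34 ± 0.50, SE, adjusted p = 0.0109) and Jun (-1.05 ± 0.27, SE, adjusted p = 0.0307), which was lost without any 1 of 4 single arrays (highest adjusted p = 0.0914). Irf8 averaged -1.90 ± 0.01 (SD, n = 3) in wild type and -0.25 ± 0.86 (SD, n = 5) in the knockout under heme and LPS. Under heme and LPS the knockout exceeded wild type in 2 activators, where 2.13% of all genes were higher, Irf1 (2.25 ± 0.50, SE, adjusted p = 0.0163) and Irf5 (1.27 ± 0.27, SE, adjusted p = 0.011). With the replicate block over LPS-treated arrays 1 activator was called. Irf1 lost its call without the wild-type heme array lettered b or c (highest adjusted p = 0.0874), and Irf5 without that lettered c (adjusted p = 0.0548).

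Messages of genes that restrain the family were mostly raised by LPS and partly lowered by heme in wild type. Their part in the fall of the subunits was not tested. LPS raised 7 of 8, where 12.3% of all genes were higher, among them Il10 (5.02 ± 0.36, SE, adjusted p = 2.18e-07), the cytokine that represses IL-12 production, and Socs1 (3.56 ± 0.35, SE, adjusted p = 3.66e-06), and lowered Maf (-0.73 ± 0.21, SE, adjusted p = 0.0162), a factor that promotes Il10. The fall of Maf was lost without the LPS array lettered a (adjusted p = 0.063). Heme in wild type lowered 4 of 8 and raised none, where 6.35% of all genes were lower, including the repressor Bcl6 (-3.44 ± 0.27, SE, adjusted p = 2.21e-06) and Il10 (-2.58 ± 0.36, SE, adjusted p = 0.000175), while Nfil3 gave -1.30 ± 0.49 (SE, adjusted p = 0.105). Socs1, also among the 4, was lost under quantile normalization (adjusted p = 0.505) and without any 1 of 5 single arrays (highest adjusted p = 0.218). In the knockout 3 fell, where 2.67% of all genes were lower, again with Bcl6 (-2.20 ± 0.23, SE, adjusted p = 6.18e-05) and Il10 (-1.30 ± 0.29, SE, adjusted p = 0.0151). The latter was lost under quantile normalization (-0.69, adjusted p = 0.111) and without the knockout LPS array lettered d (adjusted p = 0.0569). Maf was the only gene of these lists to pass the interaction (1.47 ± 0.27, SE, adjusted p = 0.0161), a call lost without the wild-type LPS array lettered b (adjusted p = 0.0559). Under heme and LPS 4 of 8 were higher in the knockout, where 2.13% of all genes were, led by Maf (1.72 ± 0.19, SE, adjusted p = 7.07e-05) and Il10 (1.57 ± 0.32, SE, adjusted p = 0.00882), and 2 with the replicate block over LPS-treated arrays. Of these 4, the calls of Bcl6 and Socs1 were lost under quantile normalization (adjusted p = 0.102 and 0.0921) and without any 1 of 3 and of 6 single arrays, and that of Il10 without the wild-type heme array lettered b (adjusted p = 0.0544). Against albumin, where 12.9% of all genes were higher and 14.4% lower, wild-type heme and LPS raised 4 and lowered 2 of the 8 brakes, raised 3 and lowered 3 of the 11 activators, raised 5 of the 9 LPS receptor genes and changed no receptor of the family. The fall of Irf8 among the activators did not pass when any of the 6 arrays was left out (adjusted p from 0.0684 to 0.0723). The rise of Spi1 was lost without any 1 of 3 single arrays, that of Myd88 of 5 and that of Traf6 of 2 (highest adjusted p = 0.059, 0.0726 and 0.0683). Of the 5 kinases and STAT factors 2 rose and 1 fell against albumin. The gene that fell, Stat4, lost its call without any 1 of 4 single arrays (highest adjusted p = 0.104).

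**Figure D4:**
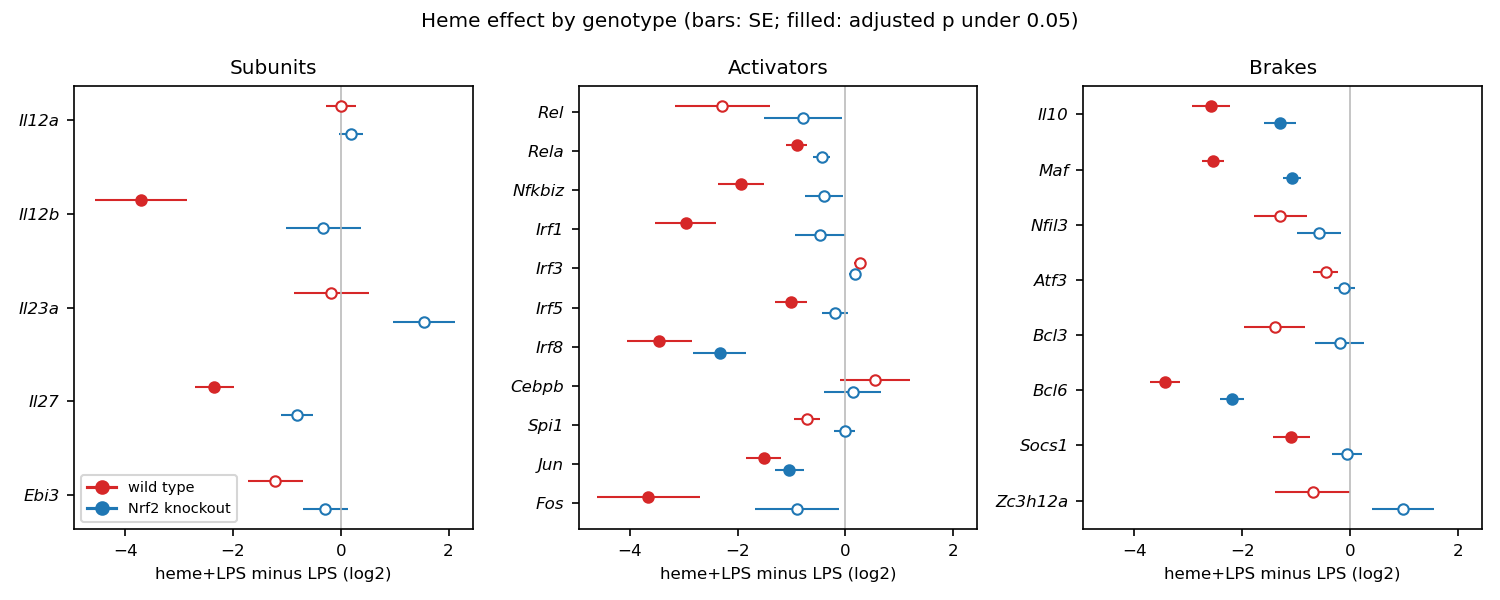
Log2 difference between heme with LPS and LPS alone (horizontal axis) for the subunits and for the listed activators and brakes (vertical axis), in wild type (red) and knockout (blue), with bars for the SE and filled points for an adjusted p under 0.05. In wild type 7 of 11 activators and 4 of 8 brakes are lower, and in the knockout 2 and 3 are.

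Cell type markers were compared beside the fall of the subunits. In wild type heme lowered 2 of 6 macrophage markers, Fcgr1 (-5.38) and Mertk (-3.08), and none of 8 dendritic cell, 4 B cell or 6 T and NK cell markers passed, while 1 of 6 neutrophil markers, Elane, was higher (1.08). Over all genes 6.35% were lower and 1876 of 22485 were higher in this comparison. The call of Mertk was lost without any 1 of 3 single arrays (highest adjusted p = 0.0689) and that of Elane without the 4 arrays lettered a (adjusted p = 0.0754). In the knockout heme also lowered Fcgr1 (-2.44, adjusted p = 0.0288) and raised Elane (0.98, adjusted p = 0.0056). Over all genes 2.67% were lower there and 922 of 22485 were higher. Under heme and LPS the knockout exceeded wild type in Fcgr1 (3.09, adjusted p = 0.0143), where 2.13% of all genes were higher. No other listed marker was called in these knockout comparisons. The median log2 ratio of the macrophage markers ran from -1.04 to -0.13 on wild-type heme arrays and from -0.04 to 0.18 on wild-type LPS arrays. For the dendritic cell markers it ran from 0.00 to 0.32 and from 0.00 to 0.09. The part of cell makeup in the fall of Il12b and Il27 was not tested.

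The genes with the pattern most like each member over all 18 arrays, among 16842 genes compared, are given by Pearson's r as a description; all points share the reference. For Il12b they were Edn1 (0.984), Fcgr2b (0.983) and Lrig2 (0.98), and for Il27 Calhm6 (0.979), Nod1 (0.976) and Cd47 (0.975). For Ebi3 they were Cxcl16 (0.974), Batf (0.954) and Bcl3 (0.949). Among the 15 LPS-treated arrays r for these genes ran lower, at 0.964 for Edn1, 0.975 for Calhm6 and 0.959 for Cxcl16. Il23a was most like the MHC class II genes H2-Ab1 (0.898) and H2-Eb1 (0.88) and Ace (0.875). Il12a, with 13 arrays at 0, gave lower values, the highest being 0.826 for Prdm11.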

How the data were processed

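Gene expression was measured on 18 arrays with 2 dyes. The deposited values are log10 ratios of sample over reference, made by the authors with Agilent Feature Extraction 10.5.1.1, per the submitters' processing notes. The log10 scale was inferred from the form of the values, and no source used here gives the background or dye correction. The ratios were turned to log2 and averaged by symbol (33026 of 44397 features), with no further normalization and no filter on low values. limma 3.58.1 in R 4.3.3 was fitted over all 18 arrays with 1 mean per group, and every p was adjusted by Benjamini-Hochberg over 22485 genes, with a threshold of 0.05. Raw signals were not used here, so precision rests on the number of arrays. Named were all 5 members in every comparison, and from each list up to 2 rises, up to 2 falls and 1 gene not called; activators and brakes were also checked when arrays were left out. Like genes were the 3 with the highest r among genes at exactly 0 on at most 9 arrays. The members and lists were chosen with earlier results of these data known. Deviations from group means correlated between arrays of the same letter in 3 comparisons (0.23 to 0.53 for heme across genotypes, 0.20 to 0.58 for LPS across genotypes and 0.22 to 0.59 within the knockout), and not for wild-type heme against LPS (0.01 to 0.48) or for albumin. Alternatives were quantile normalization, filters, features, arrays left out, the block and restricted fits. The procedure was also run on simulated arrays with independent normal noise. Those arrays held no exact zeros and no shared deviation by letter, so that run does not speak to either.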

Additional observations from a re-analysis of the deposited data

Results flagged for a closer look

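Il12a, listed at exactly 0 on the other arrays of 2 knockout groups, departed from 0 on 1 array in each. With LPS the array lettered d read -0.835 and with heme and LPS the array lettered d read -0.0717, each apart from identical values in its group, so any value other than 0 would stand out. Groups of 3 arrays were not examined in this way. Such a rule marks some groups by chance.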

How the results depend on the processing

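Of the calls on members, Il12b and Il27 for LPS against albumin and Il27 for heme in wild type kept direction and call under every alternative run; the calls that did not are given above. Fits restricted to the groups compared called 1545 genes for heme in wild type (3303 over all arrays) with 1 member, 752 for heme in the knockout (1523), 116 for the interaction (213) and 317 for the knockout against wild type under heme (1189) with 0 members. The replicate block over LPS-treated arrays called 141 genes for the interaction and 0 members for the knockout under heme; for genotype under LPS (1 gene) both blocks and the restricted fit called 0. The block changed no other call on a member. Quantile normalization called 2 members for heme and LPS against albumin and 1 for the interaction. Without the arrays lettered a, 1 member was called for the interaction and 1 for the knockout under heme, and 6 genes for genotype under LPS. Leaving out single arrays gave 951 to 1637 genes for heme in the knockout, 135 to 323 for the interaction, 1 to 3 for genotype under LPS, 0 to 1 members for the interaction and 1 to 2 for the knockout under heme. The cause was not tested, beyond the smaller number of arrays in restricted fits.

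Reversals of sign were limited to differences that no alternative called in the reversed direction. For heme in the knockout Ebi3 became 0.0568 under quantile normalization, and ran from -0.66 to 0.00893 without single arrays, Il12b from -0.55 to 0.0823 (0.13 without the arrays lettered a) and Il12a from -0.0143 to 0.26. For heme in wild type Il12a became 0.0356 under quantile normalization and ran from -0.37 to 0.36, and Il23a from -0.57 to 0.61. For genotype under LPS the ranges were -0.0396 to 0.73 for Ebi3, -0.56 to 0.17 for Il12a, -0.63 to 0.55 for Il23a and -0.24 to 0.0786 for Il27. Il12a ran from -0.16 to 0.57 for the interaction, from -0.0143 to 0.0188 for the knockout under heme and from -0.38 to 0.35 for LPS against albumin. The files give ratios without signals, so signal over background and the meaning of values at exactly 0 are unknown, and groups of 3 to 5 arrays limit precision.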
